A study of Homo sapiens with 15 samples.

Results

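The Hippo pathway was followed here through 10 genes in tumors of the human colon cancer cell line HCT116. They were the kinases STK4 and STK3 with their scaffold SAV1, the kinases LATS1 and LATS2 with their activator MOB1A, the transcriptional co-activators YAP1 and WWTR1, and the target genes CCN1 and CCN2. Members were chosen by name, and every array probe whose RefSeq accession maps to one of them was taken, which gave 12 of the 34127 probes, as 10 of the 19480 genes on the array. STK4 and LATS1 had 2 probes each and the other genes 1. All 12 probes were among the 30585 that passed the filter on dim signals, for which the scanner software had to place a probe clearly over background in each of the 3 tumors of some construct.

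RNA of xenograft tumors from athymic nude mice was hybridized to 15 arrays, and each of 5 constructs was represented by 3 tumors on arrays of their own. All constructs were introduced by transient transfection, so that a tumor grew from a mixed pool of cells, and tumors were collected weeks later. The constructs were the empty pCDNA3 vector (Vector), the wild-type form of Myc-tagged MOAP-1 (here MOAP-1), its mutants with a single lysine changed to arginine at the position in their names (K264R and K278R), and HA-tagged wild-type RASSF1A in pCDNA3 (RASSF1A). HCT116 cells also carry their own MOAP1 and RASSF1 genes, so all 5 groups, Vector included, hold the endogenous transcripts. MOAP-1 is a pro-apoptotic partner of RASSF1A, and RASSF1A binds the kinases encoded by STK4 and STK3, which is the link from these constructs to the Hippo pathway. Nothing in the sources states that the 3 tumors of a construct came from separate transfections, so that p-values measure the spread between these tumors.

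The Hippo pathway restrains tissue growth. The MST kinases (MST1 is encoded by STK4 and MST2 by STK3), held by the scaffold SAV1, phosphorylate the LATS kinases and their MOB1 co-activators, and active LATS phosphorylates YAP1 and TAZ (the product of WWTR1), which are then kept out of the nucleus. Unphosphorylated YAP1 and TAZ enter the nucleus and join TEAD transcription factors at promoters and enhancers. CCN2 and CCN1, which encode secreted matrix proteins, are their best-known target genes, and LATS2 is a target that feeds back on the pathway. Because the pathway works through phosphorylation and localization, the transcript levels below measure the supply of its components and the output of its target genes, not the activity of the kinases.

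The letters that TEAD factors recognize are shown here for the members whose transcripts are read as output. A script searched RefSeq promoter windows (GRCh38.p14, 250 bases before to 50 bases after the start of the gene) for GGAATG on either strand. Among all 35116 windows in the table, 14% held at least 1 match and 0.128% held 3 or more. Windows were available for 8 of the 10 members (11 windows), and 3 windows held a match, those of CCN2, LATS2 and YAP1. The CCN2 and LATS2 windows are given in lower case from 5′ to 3′ on the gene's strand with matches in capitals, CCN2 at chr6:131951323-131951622 (minus strand) and LATS2 at chr13:21061537-21061836 (minus strand).
CCN2: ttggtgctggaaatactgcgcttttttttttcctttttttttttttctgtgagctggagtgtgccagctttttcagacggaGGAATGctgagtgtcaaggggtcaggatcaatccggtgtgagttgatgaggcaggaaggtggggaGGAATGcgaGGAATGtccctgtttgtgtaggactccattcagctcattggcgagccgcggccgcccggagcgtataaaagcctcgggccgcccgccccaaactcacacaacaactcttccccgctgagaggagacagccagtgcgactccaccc
LATS2: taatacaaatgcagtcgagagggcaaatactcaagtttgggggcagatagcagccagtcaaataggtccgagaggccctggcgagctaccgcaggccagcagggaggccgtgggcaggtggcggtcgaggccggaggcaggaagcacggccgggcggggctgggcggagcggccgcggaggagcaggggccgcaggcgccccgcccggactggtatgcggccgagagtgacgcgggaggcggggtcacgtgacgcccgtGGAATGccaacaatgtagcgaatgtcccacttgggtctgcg
The 3 matches of CCN2 begin 169, 104 and 95 bases before the start of the gene, and the match of LATS2 begins at base 10 after it. A match describes the letters in the window and was not tested for binding.

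Levels are given as log2 of the processed signal relative to the 75th percentile of the array, which was set to 0, so that a negative value lies below that percentile and a difference of 1 is a doubling. Levels of different probes are not set against each other, since probes differ in how well they bind. A probe was called when its Benjamini-Hochberg adjusted p in limma was below 0.05 and its change was at least 1.5-fold. By this rule 16.6% of the 30585 kept probes were called between MOAP-1 and Vector, 19.5% between K264R and Vector, 10.9% between K278R and Vector and 0% between RASSF1A and Vector, and 21.2%, 0.00327% and 0% between MOAP-1 and RASSF1A, K264R and K278R. The 75th percentile of the raw signal lay between 496.3 and 1402 on the 15 arrays, between 631 and 767.6 on those of Vector tumors, and the share of spots that rose well above background was 85.1% to 93.1%. Of 6 epithelial markers, 5 passed background on all 15 arrays, whereas CDH17, an intestinal cadherin, did so on none. The Vector tumors shared 1 slide with RASSF1A tumor 3 and with no tumor of MOAP-1, K264R or K278R, and MOAP-1 shared no slide with K264R or RASSF1A, so that slide and construct cannot be told apart in these comparisons. MOAP-1 tumor 2 shared a slide with the K278R tumors.

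The introduced genes were measured first. MOAP1 was at -0.18, -0.53 and -0.13 in the Vector tumors and at 0.34, 0.71 and 0.71 in the MOAP-1 tumors, without overlap. The difference was 0.86 (SE 0.14), or 1.82-fold, with a limma adjusted p of 0.000842. It was 0.55 (adjusted p = 0.00939) in K264R and 0.74 (adjusted p = 0.00504) in K278R tumors. RASSF1 was at 1.72, 1.52 and 1.81 in the Vector tumors and at 1.56, 1.55 and 1.59 in the tumors labelled RASSF1A, a difference of -0.12 (adjusted p = 0.671), so that its probe showed no rise in the tumors labelled with that construct. Where these probes bind is not given in the sources used here, and whether they read the introduced transcript was not tested.

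Across the 10 genes, the largest change with each MOAP-1 construct was at a probe of STK4, but the 2 probes of this gene moved in opposite directions. STK4 encodes MST1, the kinase at the top of the pathway, and lies at chr20:44966512-45080021 (GRCh38.p14). Its dimmer probe (A_24_P94054, at the 39.4th percentile of mean signal among the kept probes) was at -3.19, -3.93 and -3.02 in the Vector tumors. In the MOAP-1 tumors it was at -1.86, -1.80 and -1.84. Every MOAP-1 tumor lay more than a doubling above every Vector tumor, and the MOAP-1 tumors were the most alike of any construct.
The same probe was at -2.02, -2.23 and -2.27 in the K264R tumors and at -2.58, -2.05 and -2.28 in the K278R tumors, all above the Vector tumors. In the tumors labelled RASSF1A it was at -3.84, -3.75 and -3.40, which overlapped with the Vector tumors. Its order was therefore MOAP-1, K264R, K278R, Vector and RASSF1A, with means of -1.83 ± 0.03, -2.17 ± 0.13, -2.30 ± 0.26, -3.38 ± 0.48 and -3.66 ± 0.23 (SD, n = 3). K264R overlapped with K278R, and Vector with RASSF1A.
The change against Vector was 1.55 (SE 0.21, adjusted p = 0.000299) for MOAP-1, which is 2.92-fold with a 95% confidence interval of 2.14- to 3.98-fold. It was 1.21 (SE 0.21, adjusted p = 0.000781), or 2.31-fold, for K264R and 1.07 (SE 0.21, adjusted p = 0.00513), or 2.10-fold, for K278R. RASSF1A differed from Vector by -0.28, with a 95% confidence interval from -0.73 to 0.16 (adjusted p = 0.586). Against RASSF1A, MOAP-1 was higher by 1.83 (adjusted p = 5.29e-05), or 3.55-fold.

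The brighter STK4 probe (A_33_P3222648, at the 95.8th percentile) was at 3.75, 3.73 and 3.57 in the Vector tumors and at 3.24, 3.33 and 3.31 in the MOAP-1 tumors. It was at 3.17, 3.28 and 3.15 in the K264R tumors, at 3.40, 3.27 and 3.49 in the K278R tumors, and at 3.91, 3.81 and 3.82 in the tumors labelled RASSF1A. All tumors with a MOAP-1 construct were thus below all Vector tumors, and all those labelled RASSF1A were above them. The change against Vector was -0.39 (adjusted p = 0.00564) for MOAP-1, -0.48 (adjusted p = 0.00131) for K264R and -0.29 (adjusted p = 0.0338) for K278R by limma, each under 1.5-fold and therefore not called. RASSF1A differed from Vector by 0.17 (95% confidence interval -0.03 to 0.36, adjusted p = 0.465).
Quantile normalization moved the changes of the brighter probe to -0.19 (adjusted p = 0.162) for MOAP-1, -0.28 (adjusted p = 0.042) for K264R and -0.15 (adjusted p = 0.316) for K278R by limma, whereas the dimmer probe stayed at 1.41, 1.14 and 0.94. Under the normexp background model, the change of the dimmer probe was 0.12 for MOAP-1, 0.21 for K264R and -0.24 for K278R, none past the threshold. In that model the median over the kept probes shifted as well, to -0.53, -0.31 and -0.46. With 17 spots of extreme local background on 3 arrays left out of it, these medians were -0.15, -0.28 and -0.09, and the changes of the dimmer probe were 0.98, 0.60 and 0.62, all called.

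The gap between the STK4 probes within an array does not depend on the 75th percentile that was set to 0. The gap does depend on how background is subtracted at the dimmer probe, and it was not computed under the normexp model. It was -6.93, -7.66 and -6.58 in the Vector tumors, -5.09, -5.13 and -5.15 in the MOAP-1 tumors, -5.19, -5.51 and -5.42 in K264R, -5.98, -5.32 and -5.78 in K278R, and -7.74, -7.57 and -7.22 in the tumors labelled RASSF1A. The probes stood closer together in every tumor with a MOAP-1 construct than in any tumor of the other constructs. Unequal change of this kind says nothing of which probe follows the full STK4 transcript, and where on the transcript each probe binds is not given in the sources used here. Among the 4324 genes with several kept probes, 216 (5%) had probes past an adjusted p of 0.05 in both directions between MOAP-1 and Vector, 256 (5.92%) between K264R and Vector, and 101 (2.34%) between K278R and Vector. STK4 was 1 of them in all these comparisons.

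**Figure D1:**
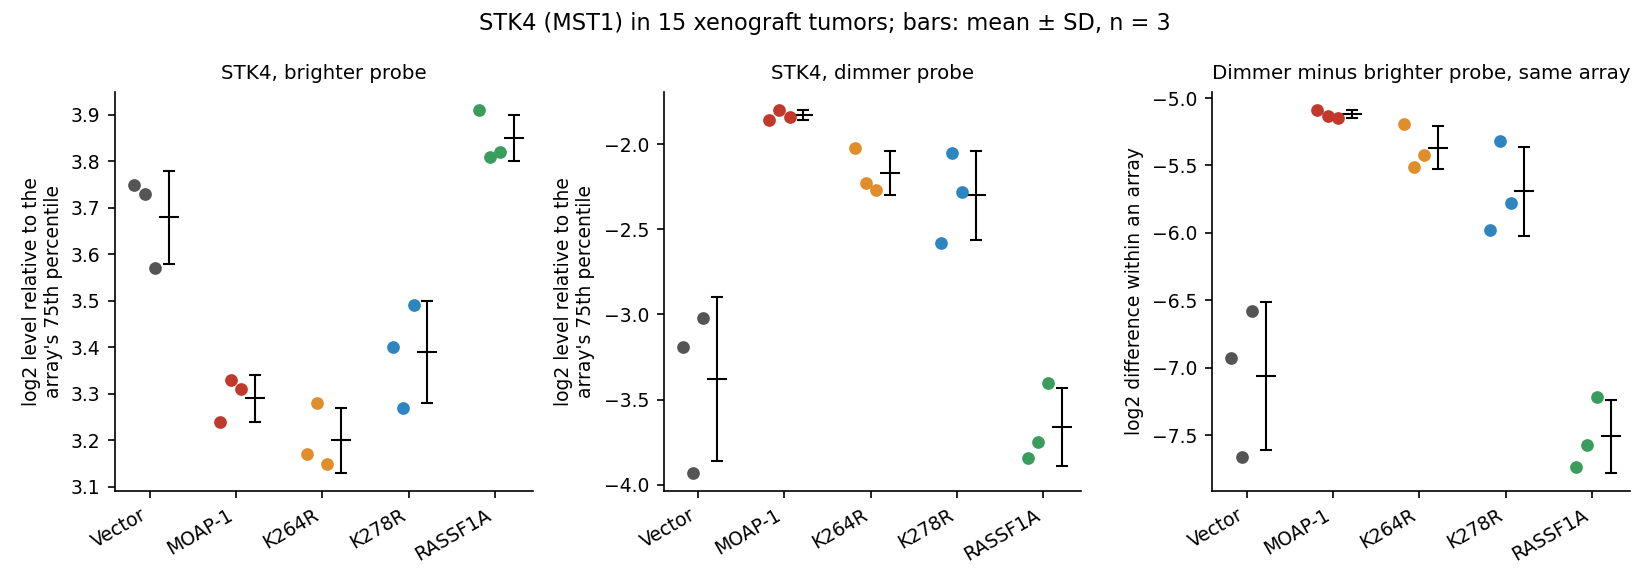
Log2 levels of the brighter (left) and dimmer (middle) STK4 probe, relative to the 75th percentile of the array, and the dimmer minus the brighter probe on the same array (right). Each point is 1 of the 15 tumors, by construct, and bars are the mean ± SD of 3 tumors. The brighter probe was lower and the dimmer probe higher in MOAP-1, K264R and K278R than in Vector tumors, and the gap narrowed from a mean of -7.06 in Vector to -5.12 in MOAP-1 tumors.

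STK3, SAV1 and MOB1A, the partners of STK4 in the kinase core, were called in none of the 7 comparisons. STK3, which encodes MST2, was at -0.41, -0.06 and -0.22 in the Vector tumors, at -0.21, -0.32 and -0.52 in the MOAP-1 tumors and at 0.39, -0.21 and 0.36 in the K264R tumors. Of the K264R tumors, 2 were above all others and 1 lay among them. STK3 was between -0.44 and 0.00 in the K278R tumors and between -0.18 and 0.06 in the tumors labelled RASSF1A. The difference between MOAP-1 and K264R was -0.52, with a 95% confidence interval from -0.89 to -0.16 and a limma adjusted p of 0.373. Against Vector, K264R was 0.41 higher (adjusted p = 0.0773), and without K264R tumor 2, the low one, 0.60 higher and called (adjusted p = 0.0106). SAV1, the scaffold that joins the MST and LATS kinases, was between 0.44 and 0.80 in the Vector tumors and between 0.12 and 0.65 in the MOAP-1 tumors, a difference of -0.26 (95% confidence interval -0.56 to 0.05, adjusted p = 0.184). The 3 tumors labelled RASSF1A, at 0.41, 0.19 and 0.33, were below all Vector tumors in SAV1, but the difference of -0.27 had an adjusted p of 0.459.
MOB1A, the co-activator of LATS, had means between -1.20 ± 0.24 in RASSF1A and -0.96 ± 0.14 in K264R tumors (SD, n = 3). K278R tumor 2 stood apart from the other K278R tumors in MOB1A, at -0.45 against -1.39 and -1.23.

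LATS1 had 2 probes of very different brightness. The brighter one (A_23_P366230) was at -2.26, -2.38 and -2.39 in the Vector tumors and at -2.15, -2.17 and -2.15 in the MOAP-1 tumors. These did not overlap, but the difference of 0.18 (95% confidence interval -0.06 to 0.43) had an adjusted p of 0.235. K264R and K278R differed from Vector by -0.05 and 0.12 at this probe (adjusted p = 0.745 and 0.455), and RASSF1A by 0.20 (adjusted p = 0.48).
The dimmer LATS1 probe (A_33_P3233764) was at the 2.89th percentile of mean signal and was well above background in only 1 of the 3 Vector tumors, so that it passed the filter through the other constructs. It was at -7.03, -6.57 and -7.07 in the Vector tumors, at -6.30, -5.93 and -6.41 in MOAP-1 and at -6.05, -6.09 and -6.06 in K278R. The changes of 0.68 for MOAP-1 (adjusted p = 0.0115) and 0.82 for K278R (adjusted p = 0.00775) were called, and that of 0.49 for K264R (adjusted p = 0.0441) was under 1.5-fold. The direction turned under the normexp model without the extreme spots, to -0.41 for MOAP-1, -0.23 for K278R and -0.72 for K264R, and the last was past the threshold (adjusted p = 0.0021). A direction for this probe therefore depends on how the background was subtracted.
LATS2, both kinase and target gene, was at -2.19, -2.25 and -2.24 in the Vector tumors and at -1.61, -1.93 and -1.65 in the K264R tumors, without overlap. The change of 0.49 passed the test (adjusted p = 0.0386) but was 1.41-fold and so not called, whereas without K264R tumor 2 it was 0.60 and called (adjusted p = 0.0309). MOAP-1 tumors, at -2.13, -2.19 and -2.08, were 0.09 above Vector (adjusted p = 0.714). The difference between MOAP-1 and K264R was -0.40 with a 95% confidence interval from -0.77 to -0.04 (adjusted p = 0.441).

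**Figure D2:**
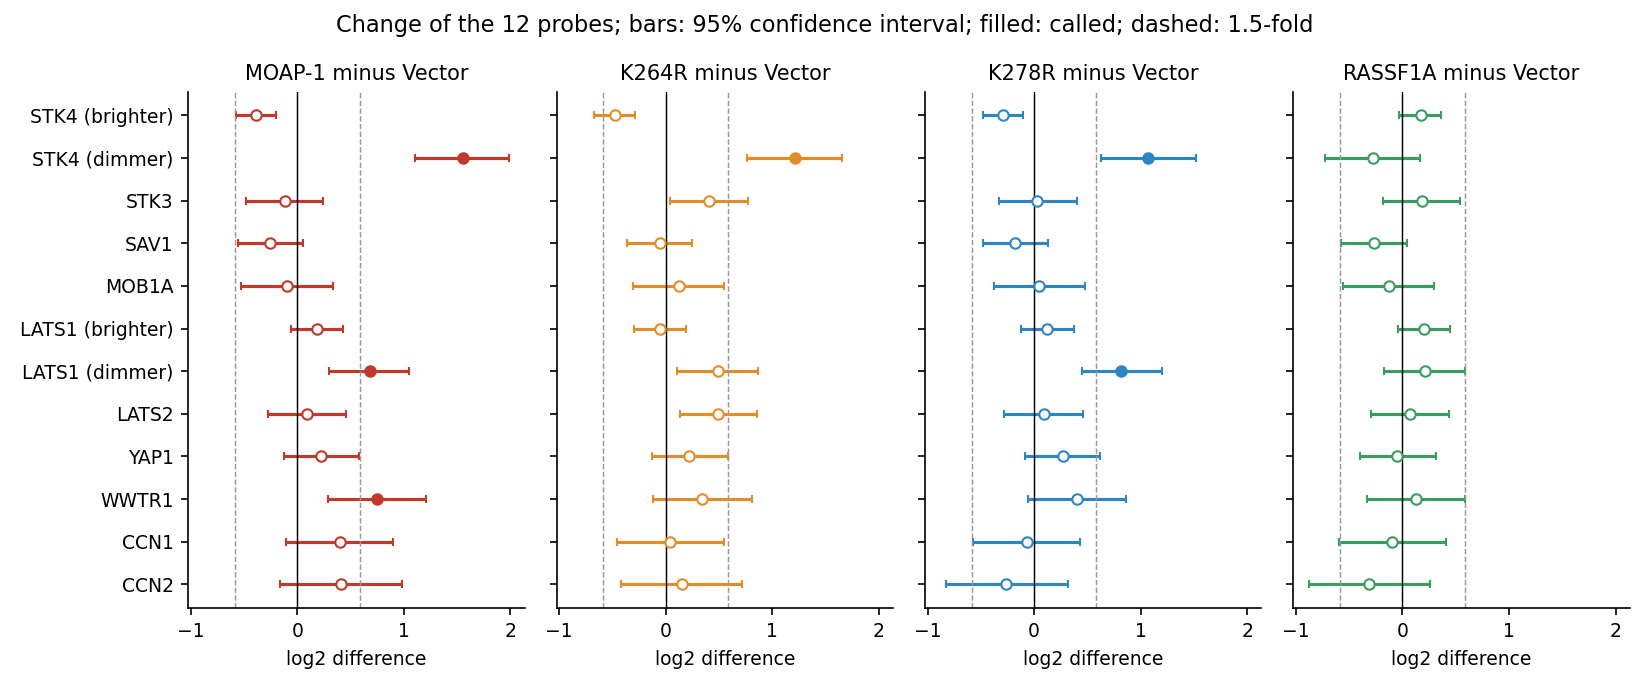
Log2 difference of each of the 12 probes between a construct and Vector, with its 95% confidence interval from limma (3 tumors a group). Filled points were called and dashed lines mark 1.5-fold. The dimmer STK4 probe is filled for MOAP-1, K264R and K278R, the dimmer LATS1 probe for MOAP-1 and K278R, and WWTR1 for MOAP-1 only, and none is filled for RASSF1A.

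Of the co-activators, WWTR1 rose with MOAP-1 and YAP1 did not pass the test. WWTR1 (chr3:149517235-149724788, GRCh38.p14) encodes TAZ. It was at -1.39, -1.36 and -1.91 in the Vector tumors and at -1.15, -0.40 and -0.86 in the MOAP-1 tumors, without overlap but with MOAP-1 tumor 2 well above the other MOAP-1 tumors. It was at -1.32, -0.97 and -1.33 in K264R, at -1.47, -0.79 and -1.19 in K278R and at -1.38, -1.54 and -1.35 in the tumors labelled RASSF1A. MOAP-1 was higher than Vector by 0.75 (SE 0.21, adjusted p = 0.019), or 1.68-fold with a 95% confidence interval of 1.22- to 2.31-fold, and higher than RASSF1A by 0.62 (adjusted p = 0.0371). The change against Vector was 0.57 (adjusted p = 0.073) without Vector tumor 3 and 0.54 (adjusted p = 0.0868) without MOAP-1 tumor 2, so that the call rested on each of them. K264R and K278R differed from Vector by 0.34 and 0.40 (adjusted p = 0.234 and 0.194) and from MOAP-1 by no more than the test could tell (adjusted p = 0.504 and 0.657).
YAP1, whose probe had 10 spots per array, was at -0.25, -0.14 and -0.40 in the Vector tumors, at 0.04, 0.01 and -0.17 in MOAP-1 and at -0.08, -0.06 and 0.02 in K264R. The K264R tumors were all above the Vector tumors, with a difference of 0.22 (95% confidence interval -0.13 to 0.58, adjusted p = 0.315). In K278R the values were -0.23, 0.47 and -0.23, with tumor 2 apart from the others as in MOB1A, and in the tumors labelled RASSF1A they were -0.29, -0.48 and -0.16.

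The target genes CCN1 and CCN2 were called against Vector with no construct. CCN1 (chr1:85580761-85583950) was at 1.42, 1.83 and 1.66 in the Vector tumors and at 2.44, 1.94 and 1.73 in the MOAP-1 tumors, where tumor 1 was the highest of the 15. Its ranges were 1.37 to 1.87 in K264R, 1.18 to 1.88 in K278R and 1.19 to 1.87 in the tumors labelled RASSF1A, and each overlapped with Vector. MOAP-1 was 0.40 above Vector (95% confidence interval -0.11 to 0.90, adjusted p = 0.211), an interval that takes in 1.5-fold.
CCN2 (chr6:131948176-131951372), whose promoter window with 3 TEAD core matches is printed above, was at -4.21, -3.41 and -3.99 in the Vector tumors and at -3.13, -3.64 and -3.60 in the MOAP-1 tumors. It was at -3.56, -3.76 and -3.84 in K264R, at -4.05, -4.16 and -4.16 in K278R and at -3.72, -4.88 and -3.94 in the tumors labelled RASSF1A. The Vector tumors overlapped with the MOAP-1 tumors, and the difference of 0.41 had a 95% confidence interval from -0.16 to 0.98 (adjusted p = 0.255). CCN2 was higher in MOAP-1 than in the tumors labelled RASSF1A by 0.72 (SE 0.27, adjusted p = 0.0465), or 1.65-fold. Without RASSF1A tumor 2 this difference was 0.38 by limma (adjusted p = 0.208), and with scan day as a block it was 0.49. The arrays of RASSF1A tumors 1 and 2 had a later scan day. That block therefore left only RASSF1A tumor 3 to set against the MOAP-1 tumors. The corresponding difference of WWTR1 was 0.54 with that block. All MOAP-1 tumors were also above all K278R tumors in CCN2, by 0.67 on average (95% confidence interval 0.10 to 1.24, adjusted p = 0.484).
Markers of other cell types were read in the same tumors, where fewer cells of a type and less RNA per cell cannot be told apart. The signals of 10 fibroblast markers were added before log2 was taken, so that the brightest markers weigh most. The result was 1.03 to 2.96 in Vector and 2.51 to 5.45 in MOAP-1 tumors. It was 2.22 to 4.28 in K264R, 3.45 to 5.37 in K278R and 3.01 to 3.52 in RASSF1A tumors. COL6A3 and LUM were above background in no tumor. The median difference from Vector of the 7 fibroblast markers tested was 1.80 in MOAP-1, 0.44 in K264R, 1.70 in K278R and 1.03 in RASSF1A tumors, larger in MOAP-1 than the change of WWTR1. In MOAP-1 these differences ran from 0.42 (FAP) to 2.29 (COL1A2), and 1 was called (COL1A1, by 2.24), and in K278R 1 was called (PDGFRB, by 1.34). COL3A1 gave the medians in MOAP-1 and K278R and was at -6.84 in the Vector tumors, with PDGFRB at -6.31. Of the 10 fibroblast markers, 5 were above background in all 3 Vector tumors, 6 in all MOAP-1 and 7 in all K278R tumors. Some of those tested thus passed the filter only through constructs other than Vector. Of 5 endothelial and 5 leukocyte markers, 1 each was called in MOAP-1 and K278R, TIE1 (by 2.37 and 2.31) and PTPRC (by 0.72 and 0.69). TIE1 was at -6.86 in the Vector tumors. Of 6 endothelial markers, 4 were above background in all Vector tumors and 5 in all MOAP-1 and all K278R tumors. VWF, of the same list, was at -0.25, -0.42 and -0.16 against Vector in MOAP-1, K264R and K278R, not called. In MOAP-1 and K278R the medians of the endothelial list were 0.31 and 0.41, and those of the leukocyte list 0.12 and -0.06. Of 5 epithelial markers tested none was called, and their medians were -0.21 and -0.28. EPCAM was at -0.42 in both (limma adjusted p = 0.0336 and 0.0429), under 1.5-fold, and CDH1 at 0.07 and 0.06. CD14 and CSF1R were at -0.42 and -0.36 against Vector in MOAP-1 (adjusted p = 0.0309 and 0.0361), under 1.5-fold, and no erythroid marker of 3 was called against Vector. The part of these cells in the values of WWTR1, CCN1 and CCN2 was not tested.

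**Figure D3:**
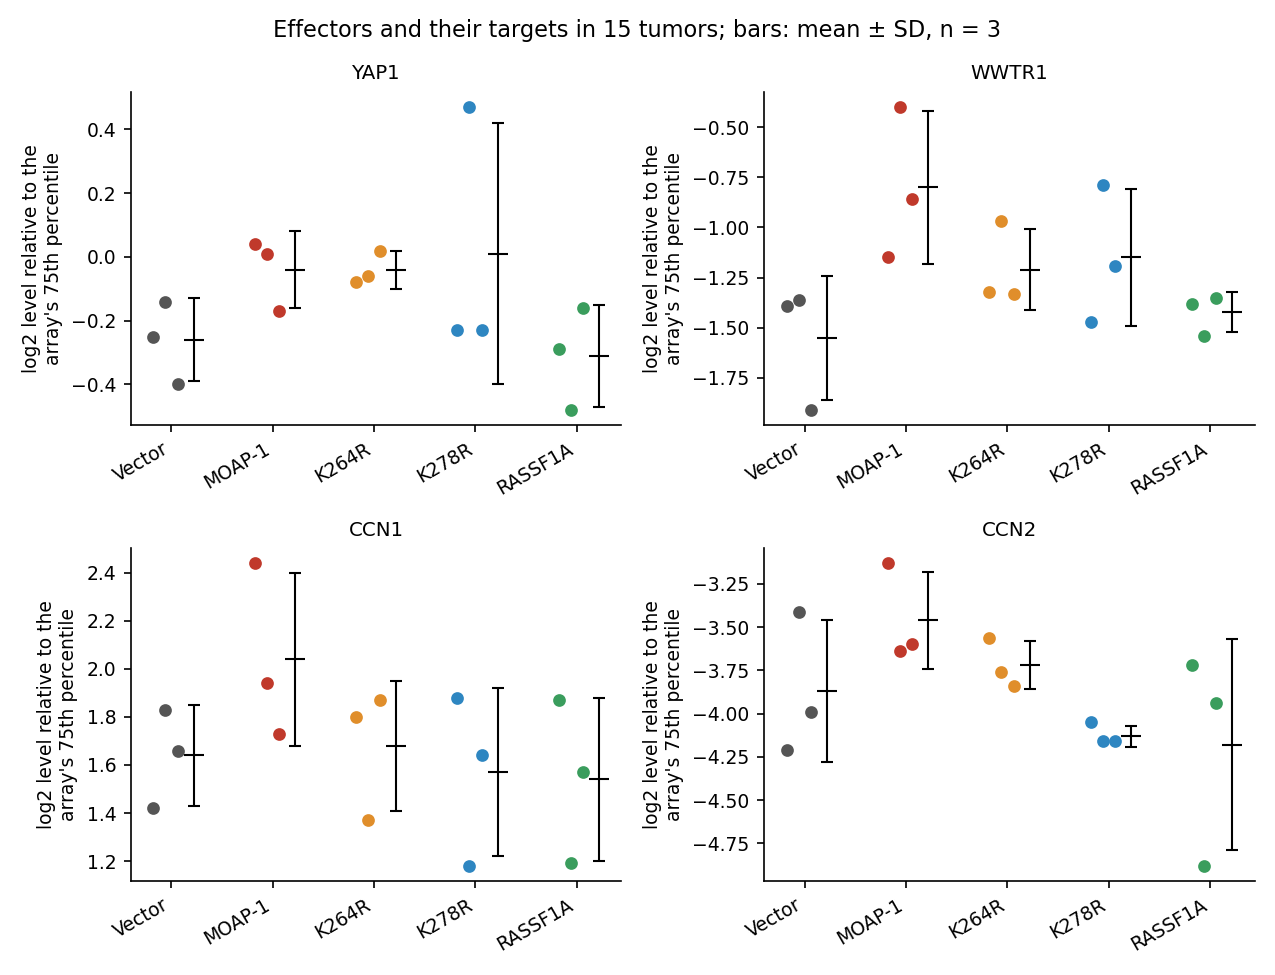
Log2 levels of YAP1, WWTR1, CCN1 and CCN2 relative to the 75th percentile of the array, with 1 point per tumor and the mean ± SD of 3 tumors. WWTR1 has its highest mean in the MOAP-1 tumors, CCN1 and CCN2 overlap between MOAP-1 and Vector, and K278R tumor 2 stands apart in YAP1.

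Counted together, 3 of the 12 probes were called between MOAP-1 and Vector, all higher (the dimmer probes of STK4 and LATS1, and WWTR1), where 16.6% of all kept probes were called and 9.92% called higher. In K264R 1 of 12 was called (background 19.5%, higher 9.25%), and in K278R 2 of 12 (background 10.9%, higher 7.71%), all of them higher. Given 12 probes, these counts are near the background. The dimmer LATS1 probe among them passed the filter only through constructs other than Vector and lay near the background signal. It enters the counts of MOAP-1 and K278R. The groups did not overlap in 5, 5 and 3 of the 12 probes, where 48.5%, 52.7% and 37.3% of all kept probes did not overlap. The median change of the 12 probes was 0.20, 0.19 and 0.07, against 0.02, -0.05 and 0.06 over all kept probes. The 3 comparisons share the Vector tumors. RASSF1A against Vector called no member and no kept probe by limma, while 12.1% of the kept probes and no member had an unadjusted p below 0.05, and 2 of 12 members did not overlap (background 14.7%). The count of kept probes depended on RASSF1A tumor 3, without which 1408 were called by limma (4.6%), 1147 of them lower and no member among them. RASSF1A tumors 1 and 2 were on another slide than the Vector tumors and had a later scan day. Construct, slide and scan day therefore cannot be told apart without tumor 3. With scan day or slide as a fixed block, only RASSF1A tumor 3 is set against the Vector tumors.
MOAP-1 against RASSF1A called 3 of 12 (the dimmer STK4 probe, WWTR1 and CCN2), all higher, where 21.2% of the kept probes were called and 13% called higher. The mutants were set against wild-type MOAP-1 to see whether the lysines matter for these genes. No member was called in either comparison by limma, and 1 kept probe in all was called between MOAP-1 and K264R, against 1806 (5.9%) with array weights, which also called 2 members. An unadjusted p below 0.05 was found for 2 members in each, STK3 and LATS2 against K264R (10.9% of kept probes), and the dimmer STK4 probe and CCN2 against K278R (9.22%). At the dimmer STK4 probe, MOAP-1 was 0.34 above K264R (95% confidence interval -0.11 to 0.78) and 0.47 above K278R (0.03 to 0.92), with adjusted p of 0.56 and 0.523.
On their shared slide, MOAP-1 tumor 2 was above the mean of the K278R tumors by 0.50 at that probe, by 0.75 in WWTR1 and by 0.48 in CCN2, and RASSF1A tumor 3 differed from the mean of the Vector tumors by -0.02 at that probe and by 0.14 at the brighter STK4 probe.

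Brightness went with the direction of change over the whole array in MOAP-1 and K278R against Vector, and the members are given beside it. Between MOAP-1 and Vector the median change was 0.16 among the dimmest of 10 equal groups of probes and -0.23 among the brightest. The brighter STK4 probe, at -0.39, was in the brightest of these groups, whose changes ran from -0.76 at the 10th to 0.30 at the 90th percentile. The dimmer STK4 probe, at 1.55, was in a group whose 90th percentile was 0.72, and the dimmer LATS1 probe, at 0.68, in one whose 90th percentile was 0.95. In K278R against Vector, the dimmest group had a median of 0.31 and the brightest of -0.17. In K264R against Vector these medians were 0 and -0.26, so that the dimmest probes did not rise there. The part of brightness in the changes of single probes was not tested.

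**Figure D4:**
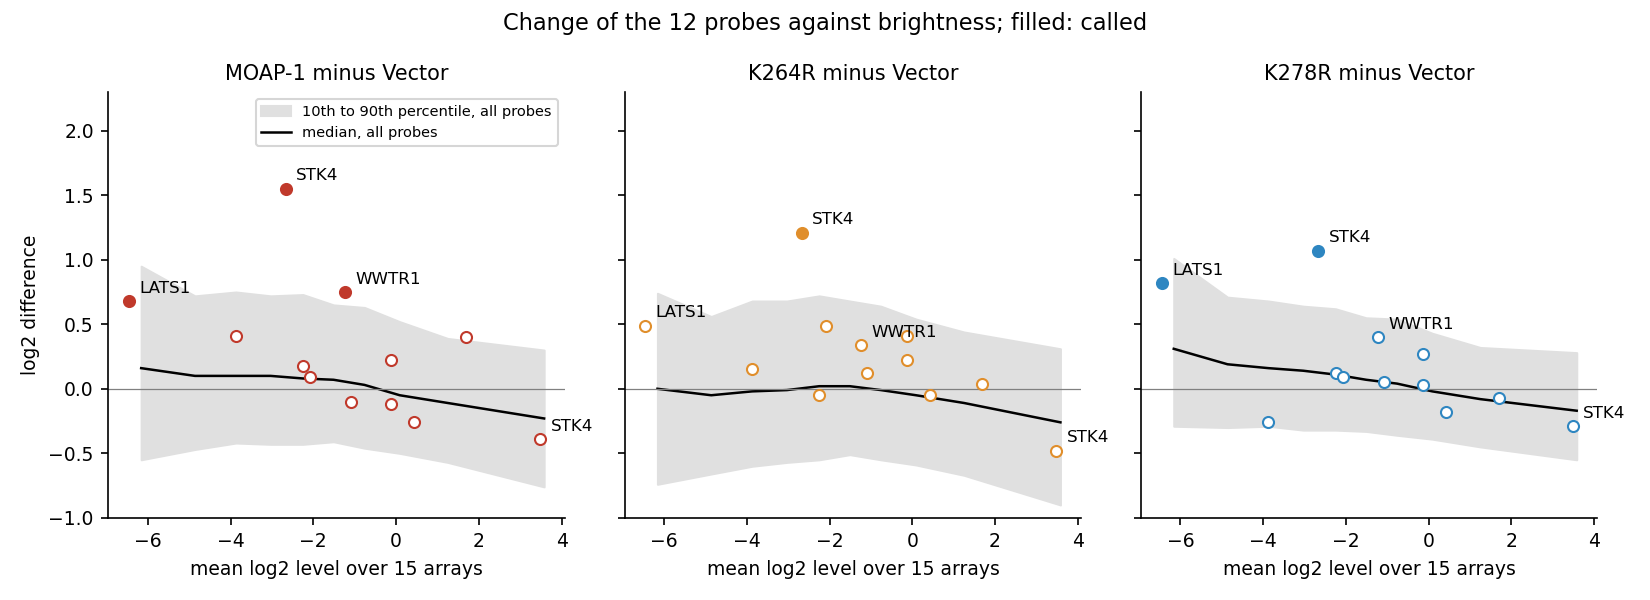
Log2 difference from Vector of the 12 probes against their mean log2 level over 15 arrays, for MOAP-1, K264R and K278R. The black line is the median and the grey band the 10th to 90th percentile of all kept probes in 10 equal groups by brightness, and filled points were called. The dimmer STK4 probe lies above the band in all 3 panels, the brighter one within it.

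Other genes of the pathway were taken from a list of 28 regulators and partners of the core, at the brightest kept probe of each gene. Between MOAP-1 and Vector 4 rose, 1 fell and 23 were not called, beside 9.18% called higher and 5.83% called lower among all 18013 genes. The median change was 0.08, against 0.01 over all genes. STK38, a kinase of the LATS family, rose by 1.14 with MOAP-1 (adjusted p = 0.000328), by 1.25 with K264R (adjusted p = 0.000138) and by 0.99 with K278R (adjusted p = 0.00253).
VGLL4, which competes with YAP1 for TEAD factors, rose by 0.95, 0.84 and 0.86 with MOAP-1, K264R and K278R (adjusted p = 0.00618, 0.0101 and 0.0167), although its other probe changed by 0.13, -0.07 and 0.30 and was not called. STRN3, a subunit of the phosphatase complex that opposes the MST kinases, and AMOT, which binds YAP1, rose with MOAP-1 by 0.82 and 0.75 (adjusted p = 0.0418 and 0.0342) and with K264R by 1.05 and 0.94 (adjusted p = 0.012 and 0.00969). In K278R they were 0.32 and 0.30 above Vector (adjusted p = 0.444 and 0.397). None of the calls of STK38, STRN3 and AMOT against Vector remained under the normexp model without the extreme spots, where STK38 was at 0.25, 0.07 and 0.22 in MOAP-1, K264R and K278R, STRN3 at 0.11 and AMOT at 0.17 in both MOAP-1 and K264R, whereas the calls of VGLL4 were kept. With the replicate block, STRN3 in MOAP-1 had an adjusted p of 0.0541. STK38, STRN3 and AMOT were at the 18th to 26.4th percentile of brightness.
MOB1B, the paralog of MOB1A, fell by 1.43 with MOAP-1, 1.62 with K264R and 1.23 with K278R (adjusted p = 0.00111, 0.000375 and 0.00588) at its brightest probe. Of its other kept probes, 1 changed by -0.70, -0.82 and -0.36, called in the first 2, and 1 by -0.08, 0.45 and 0.23, called in none.
In K264R against Vector 4 regulators rose and 2 fell (all genes, 9.46% and 8.93%), and in K278R 3 rose and 1 fell (6.60% and 2.96%). TAOK2, which fell with K264R, and AMOTL1, which rose with K278R, complete these counts and were named after their values were seen. None was called with RASSF1A, although without RASSF1A tumor 3 STK38 and VGLL4 were, at -0.60 and -0.88 (adjusted p = 0.0329 and 0.0239). Without that tumor, construct, slide and scan day cannot be told apart. MOAP-1 against RASSF1A called 3 higher and 1 lower (12.4% and 7.43%).

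A list of 19 further YAP1 and TAZ targets was read in the same way. With MOAP-1, 2 rose, 1 fell and 16 were not called, beside 9.18% of all genes called higher and 5.83% called lower, and the median change was 0.01. RBMS3, an RNA-binding protein gene, rose by 1.25 (adjusted p = 0.00334) and ASAP1, a regulator of ARF GTPases, by 1.18 (adjusted p = 0.0172), while FJX1 fell by 0.59 (adjusted p = 0.00153). Under the normexp model without the extreme spots none of them was called, with changes of 0.38, 0.51 and -0.54. FJX1 also fell with K264R and K278R, by 0.68 and 0.64 (adjusted p = 0.000483 and 0.00301), and RBMS3 rose with K278R by 0.94 (adjusted p = 0.0241). With K264R no target rose and 2 fell, FJX1 and PTPN14, the latter named after its values were seen. ANKRD1, among the targets most used as a readout, was 0.52 above Vector in MOAP-1 tumors and was not called.
No target was called with RASSF1A, where the median change was -0.12. MOAP-1 against RASSF1A called 4 targets higher and none lower, RBMS3, ASAP1 and, named after their values were seen, NT5E and IGFBP3, where 12.4% of all genes were called higher. Of 16 promoter windows of these targets (14 genes), 7 held the GGAATG letters, where 14% of all windows did. Chromosome 8 was again left out for the targets but not for all windows.

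**Figure D5:**
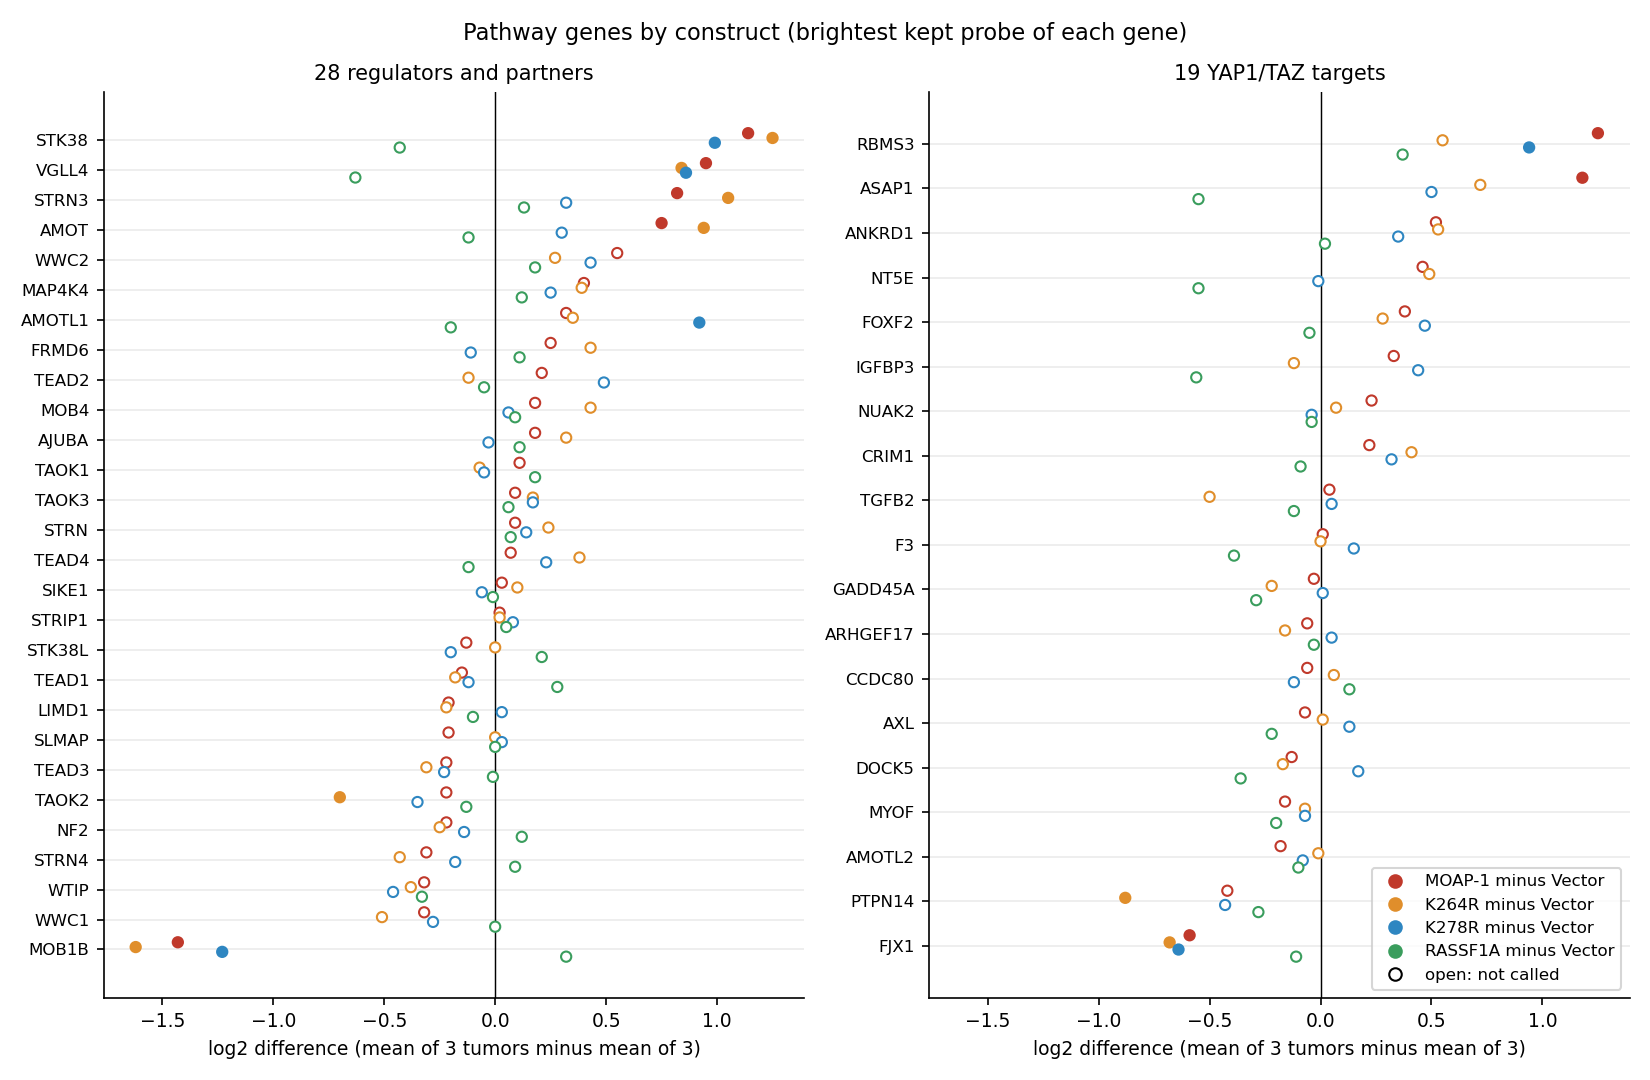
Log2 difference from Vector of 28 regulators and partners (left) and 19 YAP1 and TAZ targets (right) for each construct, at the brightest kept probe of each gene and sorted by the MOAP-1 difference. Filled points were called. STK38 and VGLL4 are filled on the right and MOB1B on the left of 0 for all 3 MOAP-1 constructs, and no RASSF1A point is filled.

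The genes whose levels over the 15 tumors were most like those of STK4, CCN1 and CCN2 were listed as a description. All 15 points share the division into constructs and slides. For the dimmer STK4 probe they were MED6, PEA15 and SLC31A1 (Pearson r of 0.986, 0.983 and 0.983), and for the brighter one GPSM1, PCDHB13 and PLEKHG5 (0.992, 0.99 and 0.99). For CCN1 they were WSB1, ERO1A and ZNF395 (0.847, 0.832 and 0.819), and for CCN2 INSIG2, ARLN and MSANTD3 (0.85, 0.841 and 0.841).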

How the data were processed

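RNA of 15 xenograft tumors was hybridized to single-color Agilent 4x44K arrays. The authors deposited the intensity of each spot, background-corrected by Agilent Feature Extraction (10.5.1.1 per the file headers, 9.1 in the submitters' processing notes) and not normalized between arrays, and a table of log2 values, normalized and probe-centered in GeneSpring GX. In that table, 8 columns followed the array of the same label and 7 another array of the same construct, so it served only as an alternative.

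Control spots and outlier spots were removed, log2 processed signals were set to 0 at the 75th percentile of each array, and the spots of a probe were averaged. Symbols came from RefSeq (GRCh38.p14) through the accession of a probe (74.5% of 34127 probes had 1 symbol). All 15 arrays were fitted in limma 3.58.1 (R 4.3.3) with construct as the only term, and p-values of the 7 comparisons were adjusted over 30585 probes by the Benjamini-Hochberg method. Precision is limited by the number of tumors. Members, lists and rules (all member probes, MOAP1 and RASSF1, list genes called with MOAP-1 or in at least 2 comparisons with Vector, and the 3 genes most like STK4, CCN1 and CCN2) were chosen with earlier results of these data known. The authors stated no strand or position for the probes in the sources used here. Alternatives were other normalizations, background models, filters, blocks, tests and samples.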

Additional observations from a re-analysis of the deposited data

Results flagged for a closer look

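The change of 3 members differed between MOAP-1 and RASSF1A by the test of the difference itself. At the dimmer STK4 probe, MOAP-1 tumors were higher than those labelled RASSF1A by 1.83 on the log2 scale (limma adjusted p = 5.29e-05). They were higher by 0.62 in WWTR1 (adjusted p = 0.0371) and by 0.72 in CCN2 (adjusted p = 0.0465). Of all kept probes, 21.2% were called in this comparison. Scan day as a block left only RASSF1A tumor 3 to set against the MOAP-1 tumors. The differences were then 0.54 in WWTR1 and 0.49 in CCN2. The replicate block ended the call of CCN2 in limma (adjusted p = 0.0543). Without RASSF1A tumor 2 the difference in CCN2 was 0.38, and without MOAP-1 tumor 2 that in WWTR1 was 0.41 (adjusted p = 0.166). Leaving out any 1 tumor of these groups left 1 to 2 called members. Slide and construct cannot be told apart here.

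At the brighter STK4 probe, all tumors of each MOAP-1 construct were below and all tumors labelled RASSF1A above the Vector tumors. The mean of the MOAP-1 tumors was -0.56 from that of the RASSF1A tumors, a difference under 1.5-fold that passed the limma test (adjusted p = 0.000395). The corresponding differences were -0.64 for K264R and -0.46 for K278R, and these were not tested. How many of all kept probes show this pattern was not counted. Against Vector, 48.5% of the kept probes did not overlap in MOAP-1, 52.7% in K264R, 37.3% in K278R and 14.7% in RASSF1A.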

How the results depend on the processing

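The 12 member probes were followed over 1697 alternative values in 7 comparisons. Of these, 8 became called and 44 lost the call with the sign kept, and 6 changed sign and were called before or after. The other 1639 kept their side of the threshold, of which 92 had the other sign without being called in either setting. The dimmer STK4 probe was called higher in MOAP-1 than in Vector under every alternative run except the normexp background model (0.12). Under normexp this probe was at -0.24 in K278R, and the dimmer LATS1 probe at -1.67 in MOAP-1 and -1.49 in K278R against Vector. Without the spots of extreme local background, the dimmer LATS1 probe was at -0.41, -0.23 and -0.72 in MOAP-1, K278R and K264R. The median of all kept probes moved to -0.53, -0.31 and -0.46 in MOAP-1, K264R and K278R under normexp. The sign of some members of the pathway lists also turned there, for STK38 (-0.92, -0.27 and -0.95 in MOAP-1, K264R and K278R), AMOT (-0.77 and -0.11 in MOAP-1 and K264R), STRN3 (-1.01 and -0.20), RBMS3 (-0.61 and -0.75 in MOAP-1 and K278R) and ASAP1 (-0.36 in MOAP-1). Relative to that median, STK38, AMOT and STRN3 in K264R (0.04, 0.20 and 0.11) and ASAP1 in MOAP-1 (0.17) were still above 0.

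Counts of called members were 3 in MOAP-1, 1 in K264R and 2 in K278R against Vector, and 3 in MOAP-1 against RASSF1A. Under normexp each was 0, where 1.71%, 2.99%, 0.00327% and 7.39% of all kept probes were called, and without the extreme spots they were 1, 2, 1 and 1 (all probes, 9%, 29.4%, 4.26% and 12.5%). The methods' t-test, once adjusted, gave 1, 0, 0 and 1 (all probes, 8.59%, 14.1%, 0% and 13.7%). K278R against Vector gave 1 under quantile normalization (8.71%), 1 with probes above background on all arrays (2945 of 28155 probes) and 1 with only the arrays compared (3.83%). MOAP-1 against RASSF1A gave 1 by the unadjusted t-test (20.1%), and scan day as a block left only RASSF1A tumor 3 in this comparison. Array weights called 2 members in MOAP-1 against K264R (5.9%), and the unadjusted t-test 1 in MOAP-1 against K278R (0.471%). Leaving out 1 tumor at a time gave 1 to 3 called members in MOAP-1, 1 to 4 in K264R and 2 in K278R against Vector, and 1 to 2 in MOAP-1 against RASSF1A. The lowest count in MOAP-1 against Vector came without Vector tumor 3 and without MOAP-1 tumor 2, and the highest in K264R without K264R tumor 2.

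Regulators called were 5 in MOAP-1, 6 in K264R and 4 in K278R against Vector and 4 in MOAP-1 against RASSF1A. Under normexp they were 1, 1, 0 and 2. Without the extreme spots they were 2 in MOAP-1 and 3 in K264R against Vector and 2 in MOAP-1 against RASSF1A. Quantile normalization gave 3 in MOAP-1 against Vector. Leaving out 1 tumor gave 3 to 4 in MOAP-1 and 2 to 4 in K278R against Vector, 0 to 2 in RASSF1A against Vector and 0 to 1 in MOAP-1 against K264R. Targets called were 3, 2, 2 and 4 in the same 4 comparisons and 0 in each under normexp. Without the extreme spots they were 0 in MOAP-1, 4 in K264R and 1 in K278R against Vector. Quantile normalization gave 1 in K278R against Vector and 2 in MOAP-1 against RASSF1A. Leaving out 1 tumor gave 1 to 3 in K264R and 0 to 4 in K278R against Vector and 1 to 3 in MOAP-1 against RASSF1A.

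With the replicate number as a block, counts of called members stayed within 1.5 times, at 3, 1 and 2 in MOAP-1, K264R and K278R against Vector, and 2 in MOAP-1 against RASSF1A, where CCN2 lost its call (0.72, adjusted p = 0.0543), as did STRN3 in MOAP-1 against Vector (0.82, adjusted p = 0.0541). Same-numbered tumors did not deviate together (correlations from -0.25 to 0.366), so the numbers were not taken as pairs. Over all kept probes the block moved the calls from 5079 to 5250 in MOAP-1, from 5949 to 6047 in K264R and from 3337 to 3558 in K278R against Vector. Of all called probes, 59.7% in MOAP-1 and 70.7% in K278R were higher than in Vector, and after quantile normalization 48.8% and 51.3%. The dimmer LATS1 probe lies near the background, where the signal limits any change. The cause of these differences was not tested.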
